A study of Mus musculus with 18 samples.

Results

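The genes described here are 33 mouse genes of glycolysis, lactate handling and the response to low oxygen, taken as the rows of the deposited tables whose gene symbol equals a listed member. All 33 were present among 18922 genes and all passed the filter on low counts that left 15329 genes for testing. They fall into 6 roles: 10 genes of upper glycolysis (Hk1, Hk2, Gpi1, Pfkl, Pfkm, Pfkp, Aldoa, Aldoc, Tpi1, Pfkfb3), 6 of lower glycolysis (Gapdh, Pgk1, Pgam1, Eno1, Eno2, Pkm), 3 of pyruvate and lactate (Ldha, Ldhb, Pdk1), 3 membrane transporters (Slc16a1, Slc16a3, Slc2a3), 4 of oxygen sensing (Hif1a, Epas1, Egln1, Egln3) and 7 genes known to be induced by hypoxia (Bnip3, Ankrd37, Ddit4, Adm, Ndrg1, P4ha1, P4ha2). They were measured by polyA RNA sequencing of brain tissue from male C57Bl6 mice aged 8 to 10 weeks. The mice were Trem2 wild type (WT) or Trem2 knockout (KO). Trem2 encodes a receptor for lipids that microglia and other macrophages carry. Every mouse received Rose Bengal (50 mg/kg, intraperitoneal) and a 125 mW laser of 525 nm over a cortical circle of 3 mm. This clots the vessels under the light (photothrombotic stroke). Tissue was taken 7 days later with the help of the vital stain TTC. The 6 groups of 3 libraries are WT contralateral, WT peri-infarct, WT infarct core, KO contralateral, KO peri-infarct and KO infarct core. The contralateral tissue thus comes from mice that also had a stroke, and no unoperated group is among the samples. The sources used here do not give how the knockout was made or whether each library is a single animal. The p-values therefore measure only how these libraries vary, and part of that may be technical.

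Glycolysis splits glucose into pyruvate in the cytosol and yields ATP without oxygen. Lactate dehydrogenase then regenerates NAD+ by turning pyruvate into lactate, which leaves or enters cells through monocarboxylate transporters. Several steps have alternative isozymes whose mixture differs between cell types. In the brain Hk1, Pfkm, Pfkp, Eno2, Ldhb and the glucose transporter Slc2a3 are prominent in neurons and Aldoc in astrocytes, while Hk2, Ldha and Slc16a3 are typical of cells with high glycolytic flux. In hypoxia the prolyl hydroxylases encoded by the Egln genes no longer mark HIF alpha proteins for degradation, and HIF binds hypoxia response elements, whose core letters are ACGTG or GCGTG, near many glycolytic genes and near Egln3, Adm and P4ha1. Transcript levels of Hif1a do not report its protein.

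Transcripts of the lactate exporter Slc16a3, the hexokinase Hk2, Hif1a and the kinase Pfkfb3 rose in the core of WT and KO brains, with the largest log2 fold changes for Slc16a3 and Hk2, while Gapdh, Pgk1, Tpi1 and Pgam1 did not pass the test in either core with all libraries. Egln3, a prolyl hydroxylase, and Slc16a3 were lower in KO than in WT tissue when the regions were combined in an exact permutation test, a difference that the model across all genes did not call with all 18 libraries. That test treats libraries of different regions as separate samples, and the sources used here do not say whether regions share animals. If replicate numbers stood for animals, no permutation p could go below 0.1. In bulk tissue, fewer cells of a type and less RNA per cell cannot be told apart.

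The libraries held 16993978 to 17691801 counts in 17 cases and 18713770 in WT core replicate 3. Trem2 ranged from 56.0 to 1338 TPM (a per-length measure of transcript abundance) in WT libraries and from 0.900 to 19.6 in KO libraries, as labelled. WT core replicate 3 stands apart: 7 pan-neuronal markers summed to 22.4 TPM there and to 2371 to 3594 in the other 5 core libraries, and 10 microglia and macrophage markers summed to 13709 against 4591 to 6217. Of the 33 members, 16 were higher in WT core replicate 3 than in all 5 other core libraries and 14 were lower than in all 5, beside 17.3% and 68% of all tested genes in TPM. Tests are given with all 18 libraries, as planned, and also without that library where leaving it out made or ended a call or moved a log2 fold change by over 1.5 times. Choroid plexus markers were high in libraries of both genotypes. Their sums were 8825 TPM in KO contralateral replicate 2, 2071 and 7635 in KO peri-infarct replicates 1 and 3, 953 in WT contralateral replicate 2 and 219 in WT peri-infarct replicate 1, against 7.90 to 125 in the others. Their part in the results was not tested.

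The letters around the transcription starts show what these genes share before any measurement. RefSeq promoter windows of GRCm38.p6, from 250 bases before to 50 bases after each start, were matched for 30 of the 33 genes with 43 starts (not for Slc2a3, Epas1 and Ndrg1). On either strand, ACGTG or GCGTG occurred at 1 or more starts of 27 of the 30 genes (90%), against 46.7% of 27025 genes in the table and 64.6% of the 12130 tested genes matched to it. For ACGTG alone the shares were 70%, 21.8% and 28.0%, and for GCGTG alone 66.7%, 35.2% and 53.1%. The 3 genes without either were Gpi1, Tpi1 and Eno2. Many members are on the list because they are known HIF targets, so this is a description of the list. Upstream bases are printed 5′ to 3′ on the gene's strand for genes that carry the results, with both motifs and their reverse complements in capitals. The reverse complement of ACGTG is CACGT, so the letters CACGTG hold a match on both strands. The windows are Slc16a3 at chr11:120948817-120949052 (plus strand), Egln3 at chr12:54203875-54204124 (minus), Hk2 at chr6:82774455-82774704 (minus), Hif1a at chr12:73907617-73907866 (plus), Ldha at chr7:46845554-46845803 (plus) and Adm at chr7:110627407-110627656 (plus). Each of these genes was called higher in the WT core with all libraries, a call that Adm lost without WT core replicate 3. Egln3 and Ldha were not called in the KO core with all libraries. Pgk1 at chrX:106186850-106187099 (plus), whose level did not pass the test in either core with all libraries, and Eno2 at chr6:124769674-124769862 (minus), a neuronal isozyme that was lower in lesions, are shown for contrast.
Slc16a3: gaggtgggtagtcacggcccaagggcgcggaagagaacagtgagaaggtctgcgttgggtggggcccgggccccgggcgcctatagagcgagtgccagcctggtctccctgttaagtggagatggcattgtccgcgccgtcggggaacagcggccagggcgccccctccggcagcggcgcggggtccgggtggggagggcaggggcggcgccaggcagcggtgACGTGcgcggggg
Egln3: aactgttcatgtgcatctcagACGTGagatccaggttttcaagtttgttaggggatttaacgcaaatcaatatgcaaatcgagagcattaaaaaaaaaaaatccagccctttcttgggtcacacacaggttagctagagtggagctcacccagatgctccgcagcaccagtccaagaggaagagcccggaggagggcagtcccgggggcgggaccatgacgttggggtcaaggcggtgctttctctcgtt
Hk2: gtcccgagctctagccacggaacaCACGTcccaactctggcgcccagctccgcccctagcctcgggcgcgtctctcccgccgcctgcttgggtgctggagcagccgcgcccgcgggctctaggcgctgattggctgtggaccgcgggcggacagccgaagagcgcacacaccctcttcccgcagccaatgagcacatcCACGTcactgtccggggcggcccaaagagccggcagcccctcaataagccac
Hif1a: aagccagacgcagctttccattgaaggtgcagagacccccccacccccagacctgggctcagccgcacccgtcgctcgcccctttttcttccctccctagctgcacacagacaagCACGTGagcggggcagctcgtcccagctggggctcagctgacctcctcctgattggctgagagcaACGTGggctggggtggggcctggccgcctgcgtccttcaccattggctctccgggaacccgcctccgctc
Ldha: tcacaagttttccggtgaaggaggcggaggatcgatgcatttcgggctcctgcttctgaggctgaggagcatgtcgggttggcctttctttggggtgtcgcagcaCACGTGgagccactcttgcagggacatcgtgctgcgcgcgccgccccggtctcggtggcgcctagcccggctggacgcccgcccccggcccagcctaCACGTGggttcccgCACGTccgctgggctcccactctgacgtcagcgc
Adm: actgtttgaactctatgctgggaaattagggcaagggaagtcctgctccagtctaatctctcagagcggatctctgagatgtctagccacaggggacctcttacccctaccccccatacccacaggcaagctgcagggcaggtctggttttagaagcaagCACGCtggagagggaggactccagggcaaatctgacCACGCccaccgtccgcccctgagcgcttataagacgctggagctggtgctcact
Pgk1: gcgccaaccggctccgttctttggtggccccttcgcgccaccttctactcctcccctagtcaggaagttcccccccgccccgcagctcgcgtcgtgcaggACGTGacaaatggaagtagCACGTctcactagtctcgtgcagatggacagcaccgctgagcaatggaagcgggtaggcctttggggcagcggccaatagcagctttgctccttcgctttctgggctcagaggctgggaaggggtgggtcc
Eno2: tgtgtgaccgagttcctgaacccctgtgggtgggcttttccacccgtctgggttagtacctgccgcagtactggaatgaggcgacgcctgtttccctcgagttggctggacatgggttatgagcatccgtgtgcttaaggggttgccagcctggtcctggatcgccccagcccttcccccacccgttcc
The capitals lie at positions -27 to -23 from the start in Slc16a3 and -229 to -225 in Egln3. The Slc16a3 stretch ends at -15, with the 14 bases next to the start left out, and that of Eno2 begins at -189. Slc16a3 has 2 ACGTG matches in its whole window, not all of them printed. Ldha has 2 starts, and the bases before 1 of them are shown. In Hk2 there are matches at -226 to -222 and -52 to -48, and in Adm at -90 to -86 and -54 to -50. Ldha has 5 strand matches between -145 and -30 and Hif1a has 3 between -135 and -66. Pgk1 has matches at -150 to -146 and -131 to -127. The letters thus occur both in genes called higher in the WT core and in a gene whose transcripts did not pass the test in either core with all libraries. A match is not evidence of binding, and no match says only that the letters are absent from the window.

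Among the transporters, Slc16a3, which encodes the low-affinity monocarboxylate transporter MCT4 that exports lactate from glycolytic cells, had the largest log2 fold change of the 33 members in both cores. Its levels in WT were 3.79, 2.98 and 3.34 TPM in the 3 contralateral libraries, 22.9, 12.8 and 13.8 in peri-infarct tissue and 23.2, 35.6 and 93.6 in the core. In KO they were 2.44, 2.64 and 2.5 in contralateral, 5.29, 5.67 and 8.84 in peri-infarct and 17.5, 23.4 and 19.2 in core libraries. The regions do not overlap within either genotype, and the highest value is WT core replicate 3. Against contralateral tissue Slc16a3 rose in the WT core by a log2 fold change of 4.54 ± 0.59 (adjusted p = 0.00012) and in the KO core by 3.12 ± 0.57 (adjusted p = 0.0013), each from edgeR's quasi-likelihood test with its SE and Benjamini-Hochberg adjustment over 15329 genes. Without WT core replicate 3 the WT value was 3.28 ± 0.28 (adjusted p = 5.6e-07), beside the KO value of 3.11 ± 0.27 (adjusted p = 2.8e-07). In peri-infarct tissue it rose in WT by 2.39 ± 0.55 (adjusted p = 0.034). The KO peri-infarct difference of 1.43 ± 0.56 (adjusted p = 0.21) did not pass with all libraries and passed without WT core replicate 3 (1.36 ± 0.28, adjusted p = 0.0033).

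Slc16a1 encodes MCT1, the transporter of endothelium, glia and many other cells. It stood at 28.6, 23.3 and 25.7 TPM in WT contralateral, 33.7, 30.1 and 36.6 in WT peri-infarct and 33.1, 36.1 and 21.1 in WT core tissue. The KO values were 19.1, 25.3 and 23.8 in contralateral, 38.5, 32.7 and 37.0 in peri-infarct and 32.1, 34.9 and 36.6 in core libraries. The peri-infarct values lie above all contralateral values of the same genotype, and WT core replicate 3 is the lowest of all core libraries. Slc16a1 rose in peri-infarct tissue of WT (0.47 ± 0.11, adjusted p = 0.040) and KO (0.69 ± 0.11, adjusted p = 0.0088) and in the core of WT (0.58 ± 0.11, adjusted p = 0.0016) and KO (0.74 ± 0.11, adjusted p = 0.00044), and it did not pass between core and peri-infarct tissue. With the replicate number as a block the WT peri-infarct call was lost (adjusted p = 0.061). As a share of the summed TPM of both transporters, which is a per-length scale, Slc16a3 made up 11.7%, 11.3% and 11.5% in WT contralateral, 40.5%, 29.7% and 27.4% in WT peri-infarct and 41.2%, 49.7% and 81.6% in WT core libraries. In KO the shares were 11.3%, 9.46% and 9.51% in contralateral, 12.1%, 14.8% and 19.3% in peri-infarct and 35.3%, 40.1% and 34.4% in core libraries. The peri-infarct share is lower in every KO library than in every WT library.

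Slc2a3, the high-affinity glucose transporter GLUT3 of neurons, went the other way. It was 79.6, 92.6 and 90.5 TPM in WT contralateral, 60.9, 77.2 and 63.3 in peri-infarct and 56.8, 50.0 and 8.24 in core tissue. In KO, Slc2a3 was 86.2, 84.0 and 83.6 in contralateral, 72.4, 68.0 and 68.6 in peri-infarct and 44.4, 47.2 and 46.9 in core libraries. In TPM the 3 regions are ordered without overlap within each genotype, and WT core replicate 3 is the lowest. It fell in the WT core by a log2 fold change of -0.97 ± 0.34 (adjusted p = 0.034), which was -0.56 ± 0.10 (adjusted p = 0.00028) without WT core replicate 3, and the KO core difference was -0.74 ± 0.33 (adjusted p = 0.13), which passed without WT core replicate 3 (-0.75 ± 0.09, adjusted p = 2.9e-06).

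**Figure D1:**
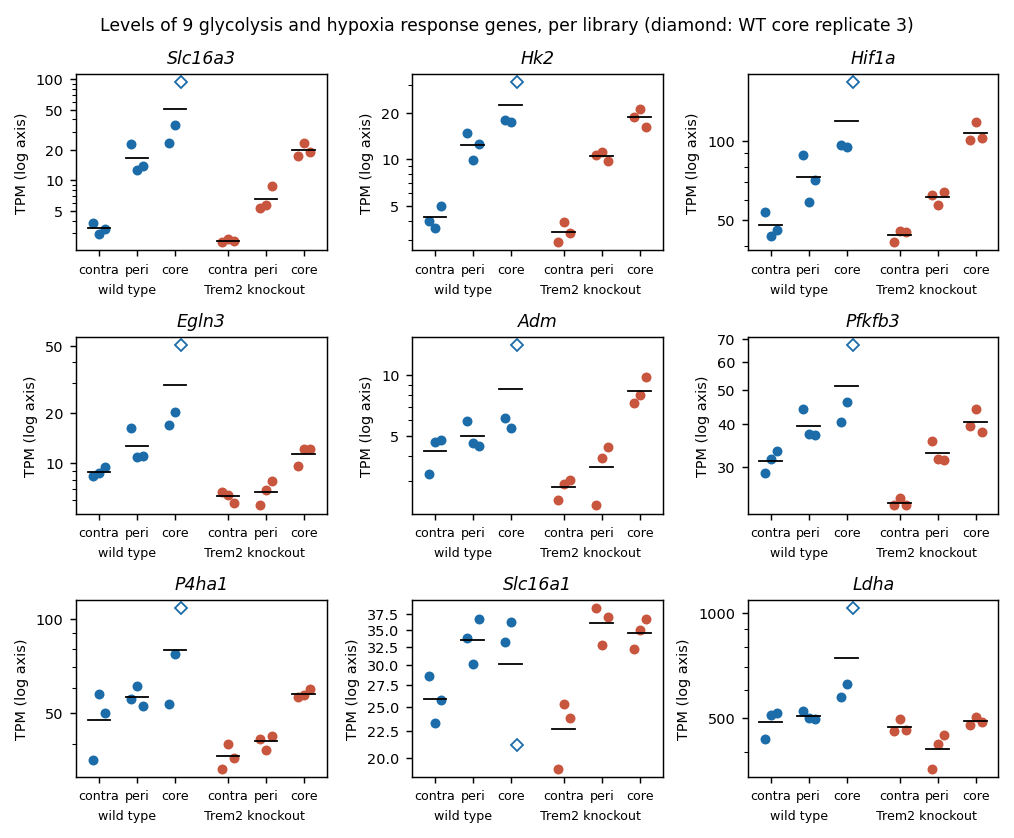
Levels of 9 members in TPM on log axes, 1 point per library, with the group mean as a line; WT libraries are blue, KO libraries red, and the open diamond is WT core replicate 3. Slc16a3 climbs from 2.44 to 3.79 TPM in the contralateral libraries of both genotypes to 17.5 or more in every core library, while Ldha in KO core (478 to 505 TPM) overlaps the KO contralateral libraries (459 to 497 TPM).

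Hexokinase traps glucose in the cell as glucose 6-phosphate. Hk2, the inducible form, was 3.98, 3.61 and 4.99 TPM in WT contralateral, 14.8, 9.81 and 12.6 in peri-infarct and 17.8, 17.4 and 31.6 in core libraries. The KO libraries held 2.89, 3.91 and 3.33 in contralateral, 10.6, 11.1 and 9.75 in peri-infarct and 18.8, 21.2 and 16.2 in core libraries. Contralateral, peri-infarct and core values are ordered without overlap in both genotypes. Hk2 rose in all 4 comparisons with contralateral tissue: by 1.67 ± 0.35 (adjusted p = 0.026) in WT peri-infarct, 1.66 ± 0.35 (adjusted p = 0.020) in KO peri-infarct, 2.95 ± 0.36 (adjusted p = 0.00011) in WT core and 2.60 ± 0.36 (adjusted p = 0.00024) in KO core. The WT core value was 2.23 ± 0.18 (adjusted p = 2.7e-07) without WT core replicate 3. Between core and peri-infarct it rose in WT (1.27 ± 0.34, adjusted p = 0.035), a call that was lost without WT core replicate 3 (0.59 ± 0.17, adjusted p = 0.059), and in KO it passed only without that library (1.01 ± 0.16, adjusted p = 0.00022).

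Hk1, the main hexokinase of brain, was 214, 225 and 221 TPM in WT contralateral, 174, 197 and 175 in peri-infarct and 171, 155 and 29.8 in core tissue. In KO, Hk1 was 213, 228 and 204 in contralateral, 203, 209 and 187 in peri-infarct and 122, 119 and 136 in core libraries. All core values lie below all contralateral values, and WT core replicate 3 is far below the rest. The core differences of -0.66 ± 0.30 (adjusted p = 0.092) in WT and -0.65 ± 0.30 (adjusted p = 0.14) in KO did not pass with all libraries, and without WT core replicate 3 both did (-0.28 ± 0.07, adjusted p = 0.0065 and -0.66 ± 0.07, adjusted p = 7.7e-07). The share of Hk2 in the summed hexokinase TPM of these genes was 1.82%, 1.58% and 2.21% in WT contralateral, 7.85%, 4.74% and 6.72% in peri-infarct and 9.43%, 10.1% and 51.5% in core tissue. In KO, Hk2 made up 1.34%, 1.69% and 1.61% in contralateral, 4.97%, 5.04% and 4.95% in peri-infarct and 13.4%, 15% and 10.6% in core libraries. Hk1 therefore stayed the more abundant transcript in every library but WT core replicate 3.

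Phosphofructokinase, the committing step, is a tetramer of subunits encoded by Pfkm, Pfkp and Pfkl. Pfkm was 444, 378 and 427 TPM in WT contralateral, 329, 327 and 341 in peri-infarct and 290.3, 233 and 18.3 in core libraries. In KO, Pfkm was 431, 409 and 394 in contralateral, 387, 339 and 339 in peri-infarct and 237, 239.5 and 269.6 in core libraries. Every lesion library is below every contralateral library of its genotype. Pfkp in WT was 195, 201 and 211 in contralateral, 145, 171 and 161 in peri-infarct and 141, 127 and 31.1 in core libraries. In KO, Pfkp was 169, 182 and 172 in contralateral, 167, 157 and 156 in peri-infarct and 108, 105 and 119.7 in core libraries, with the same order. Pfkl, the liver-type subunit that is also found in macrophages, in WT was 86.8, 106 and 95.0 in contralateral, 106, 112 and 86.9 in peri-infarct and 90.9, 113 and 84.5 in core libraries. In KO, Pfkl was 84.5, 107 and 88.2 in contralateral, 103, 109 and 88.6 in peri-infarct and 78.6, 72.6 and 88.9 in core libraries, and its regions overlap. Pfkp fell in the WT core (-0.78 ± 0.27, adjusted p = 0.032, and -0.44 ± 0.08, adjusted p = 0.00066 without WT core replicate 3), while Pfkm gave -1.02 ± 0.49 (adjusted p = 0.11) and passed without WT core replicate 3 (-0.51 ± 0.10, adjusted p = 0.00077). In KO core, Pfkm and Pfkp gave -0.60 ± 0.49 (adjusted p = 0.38) and -0.55 ± 0.26 (adjusted p = 0.16), and both passed without that library (-0.61 ± 0.09, adjusted p = 3.2e-05 and -0.55 ± 0.07, adjusted p = 1.4e-05). Pfkl was called higher in WT core (0.41 ± 0.15, adjusted p = 0.043), but the call was lost without WT core replicate 3 (0.24 ± 0.12, adjusted p = 0.13), and on log2(TPM + 1) the difference was -0.0018. On that scale the median of all genes was -0.34 in the WT core, and it was -0.12 with library size alone and -0.03 with TMM scaling, so WT core differences are relative to the scaling used.

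Pfkfb3 makes fructose 2,6-bisphosphate, the activator of phosphofructokinase. It was 28.8, 31.7 and 33.4 TPM in WT contralateral, 44.0, 37.3 and 37.2 in peri-infarct and 40.6, 46.2 and 67.3 in core tissue. In KO, Pfkfb3 was 23.3, 24.5 and 23.3 in contralateral, 35.6, 31.6 and 31.5 in peri-infarct and 39.5, 44.1 and 37.9 in core libraries. No lesion library overlaps the contralateral libraries of its genotype, and the KO contralateral libraries are all below the WT ones. Pfkfb3 rose in the core of WT (1.20 ± 0.27, adjusted p = 0.0037) and KO (0.88 ± 0.27, adjusted p = 0.032), and without WT core replicate 3 the values were 0.60 ± 0.10 (adjusted p = 0.00021) and 0.87 ± 0.09 (adjusted p = 1.1e-06).

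Of the aldolases, which split fructose 1,6-bisphosphate, Aldoa was 2322, 2430 and 2263 TPM in WT contralateral, 1998, 2115 and 1743 in peri-infarct and 1958, 1854 and 1532 in core tissue. In KO, Aldoa was 2519, 2461 and 2349 in contralateral, 2048, 2117 and 1994 in peri-infarct and 1546, 1580 and 1696 in core libraries. All lesion libraries are below the contralateral ones on this scale. Aldoa fell in the KO core (-0.47 ± 0.15, adjusted p = 0.035), the 1 member called lower there with all libraries. In WT core its difference was 0.02 ± 0.15 (adjusted p = 0.91) and -0.13 ± 0.07 without WT core replicate 3, and its sign turned with the scaling (-0.40 on log2(TPM + 1)). Aldoc, the astrocyte and Purkinje cell form, in WT was 1194, 1051 and 1089 in contralateral, 922, 1114 and 1357 in peri-infarct and 1034, 760.5 and 27.6 in core libraries. In KO, Aldoc was 1244, 1044 and 1168 in contralateral, 1132, 1082 and 1075 in peri-infarct and 978, 776 and 909.7 in core libraries. It passed in no region comparison with or without WT core replicate 3, in which 8 astrocyte markers summed to 446 TPM against 3756 to 5342 in the other core libraries. Gpi1 and Tpi1, the isomerases around this step, ranged from 251 to 442 and from 688 to 1045 TPM over all 18 libraries. Neither passed in any comparison with all libraries, and in the KO core both fell without WT core replicate 3 (-0.34 ± 0.07, adjusted p = 0.00078 and -0.35 ± 0.06, adjusted p = 0.00017).

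Of the 6 genes of lower glycolysis, 1 (Pkm) was called in a comparison with all libraries. Gapdh ranged from 3821 to 4469 TPM in the 9 WT libraries and from 3335 to 4458 in the 9 KO libraries, with the lowest values in KO core (3335, 3346 and 3630). Pgk1, which makes the first ATP of the pathway, ranged from 711 to 976 in WT and from 611 to 790.0 in KO, and Pgam1 from 667 to 816 and from 572 to 719.6. Against contralateral tissue the core differences of Gapdh, Pgk1 and Pgam1 were 0.47 ± 0.21, 0.58 ± 0.24 and 0.46 ± 0.20 in WT and -0.17 ± 0.21, -0.15 ± 0.24 and -0.11 ± 0.20 in KO, and none passed. When WT core replicate 3 was left out, Gapdh (-0.18 ± 0.06, adjusted p = 0.018) and Pgk1 (-0.16 ± 0.06, adjusted p = 0.031) fell in the KO core, while the WT core differences of 0.13 ± 0.07 and 0.09 ± 0.07 did not pass, nor did that of Pgam1 (0.08 ± 0.07). Genes such as Gapdh, Pgk1, Ldha, Tpi1, Pgam1, Aldoa and Eno1 have processed pseudogene copies, so their counts are uncertain where estimation could split reads between copies. Pkm, pyruvate kinase, was 1492, 1359 and 1394 TPM in WT contralateral, 1539, 1398 and 1272 in peri-infarct and 1453, 1520 and 2057 in core tissue. In KO, Pkm was 1516, 1440 and 1419 in contralateral, 1473, 1327 and 1427 in peri-infarct and 1224, 1308 and 1417 in core libraries. It was called higher in WT core (0.74 ± 0.26, adjusted p = 0.034, and 0.23 ± 0.08, adjusted p = 0.034 without WT core replicate 3) and not in KO core (-0.02 ± 0.26).

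Enolase makes phosphoenolpyruvate. Eno2, its neuron-specific form, was 718, 684 and 686 TPM in WT contralateral, 538, 554 and 444 in peri-infarct and 419.7, 392 and 3.60 in core libraries. In KO, Eno2 was 776, 734 and 690.5 in contralateral, 617, 587 and 558 in peri-infarct and 313, 327 and 422 in core libraries. The regions are ordered without overlap in both genotypes, and WT core replicate 3 has almost none. With all libraries the core differences of -1.20 ± 0.80 (adjusted p = 0.22) in WT and -0.93 ± 0.80 (adjusted p = 0.40) in KO did not pass. When WT core replicate 3 was left out, Eno2 fell in both (-0.63 ± 0.10, adjusted p = 0.00016 and -0.94 ± 0.09, adjusted p = 5.1e-07) and in peri-infarct tissue of WT (-0.38 ± 0.09, adjusted p = 0.0065) and KO (-0.37 ± 0.09, adjusted p = 0.0082). Eno1, the form of most other cells, in WT was 1035, 1035 and 982 in contralateral, 952, 981 and 912 in peri-infarct and 1036, 967 and 1115 in core libraries. In KO, Eno1 was 1050, 993 and 992 in contralateral, 968, 932 and 978 in peri-infarct and 802, 809 and 829 in core libraries, and the WT core overlaps the contralateral libraries while the KO core lies below them. The share of Eno2 in the enolase TPM was 40.9%, 39.8% and 41.1% in WT contralateral, 36.1%, 36.1% and 32.8% in peri-infarct and 28.8%, 28.8% and 0.322% in core tissue. In KO, Eno2 made up 42.5%, 42.5% and 41.0% in contralateral, 38.9%, 38.6% and 36.3% in peri-infarct and 28.1%, 28.8% and 33.7% in core libraries. Pan-neuronal markers summed to 5338 to 6804 TPM in contralateral, 3952 to 4682 in peri-infarct and 22.4 to 3594 in core libraries. Their part in the fall of Eno2, Hk1, Pfkm and Slc2a3 was not tested.

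Ldha encodes the lactate dehydrogenase subunit that favours lactate formation. It was 436, 510.3 and 516 TPM in WT contralateral, 523, 500.4 and 495 in peri-infarct and 576, 624 and 1030 in core tissue. In KO it was 459, 497 and 461 in contralateral, 359, 421 and 446 in peri-infarct and 478, 505 and 486 in core libraries. All 3 WT core libraries exceed every other library of either genotype, and all 3 KO peri-infarct libraries lie below the KO contralateral ones. Ldha rose in WT core (1.14 ± 0.31, adjusted p = 0.0099, 0.46 ± 0.11, adjusted p = 0.0030 without WT core replicate 3), and the KO core difference of 0.19 ± 0.30 (adjusted p = 0.66) did not pass. The difference between these core responses was -0.96 ± 0.43 (adjusted p = 0.98), and -0.28 ± 0.14 (adjusted p = 0.56) without WT core replicate 3, and did not pass either. Ldhb, the form that favours lactate use, in WT was 1220, 1056 and 1172 in contralateral, 925, 918 and 1063 in peri-infarct and 885, 692 and 175 in core libraries. In KO, Ldhb was 1257, 1190 and 1190 in contralateral, 1070, 981 and 1118 in peri-infarct and 869, 846 and 896 in core libraries. Its core values are below the contralateral ones in both genotypes, and it passed only without WT core replicate 3 (-0.38 ± 0.11, adjusted p = 0.015 in WT and -0.35 ± 0.10, adjusted p = 0.0081 in KO). The share of Ldha in the summed TPM was 26.3%, 32.6% and 30.6% in WT contralateral, 36.1%, 35.3% and 31.8% in peri-infarct and 39.4%, 47.4% and 85.5% in core libraries. In KO, Ldha made up 26.8%, 29.4% and 27.9% in contralateral, 25.1%, 30.0% and 28.5% in peri-infarct and 35.5%, 37.4% and 35.2% in core libraries. Pdk1, a kinase that inhibits pyruvate dehydrogenase, ranged from 30.2 to 41.0 TPM over all libraries. It was called higher in the WT core (0.48 ± 0.15, adjusted p = 0.021), a call that was lost without WT core replicate 3 (0.26 ± 0.11, adjusted p = 0.078). In TPM the WT core libraries (41.0, 35.5 and 35.2) overlap the WT contralateral ones (34.9, 34.6 and 37.2). On log2(TPM + 1) the Pdk1 difference was 0.061.

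**Figure D2:**
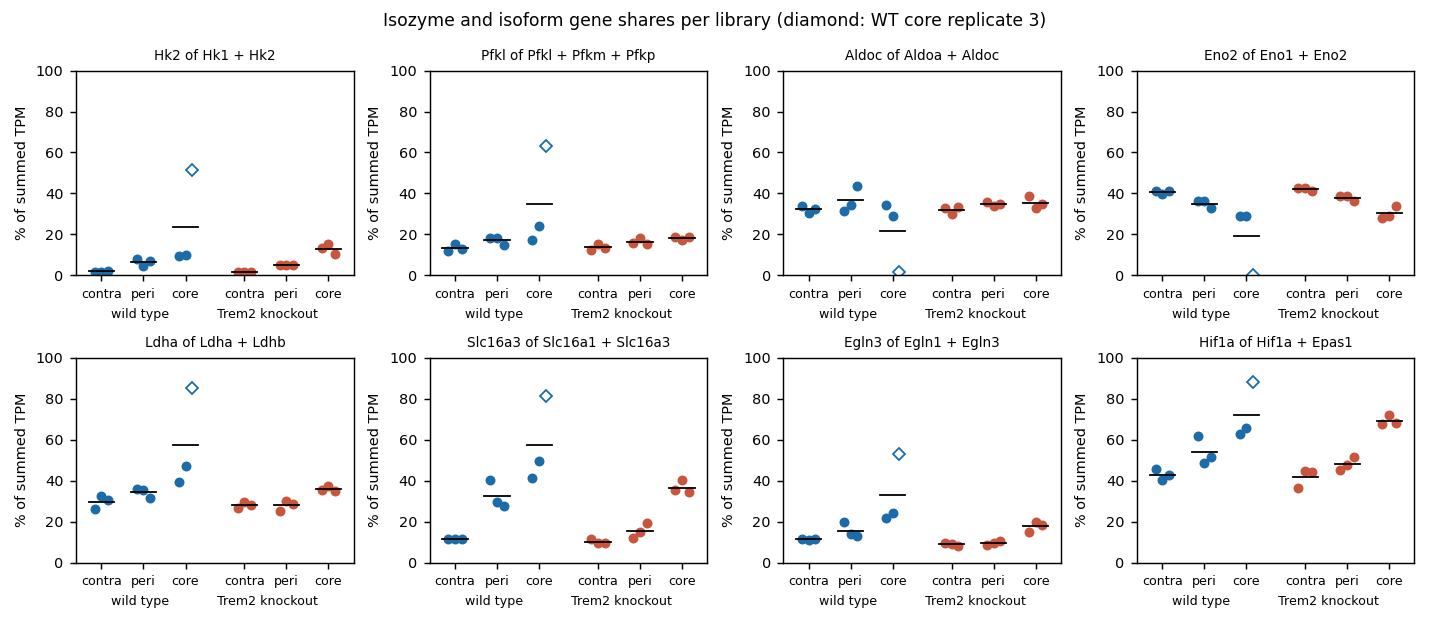
Share of 1 gene in the summed TPM of its family, in percent, per library, with the group mean as a line; blue is WT, red is KO and the open diamond is WT core replicate 3. The shares of Hk2, Slc16a3 and Hif1a are higher and that of Eno2 is lower in every core library than in every contralateral library of the same genotype, while the share of Aldoc in KO stays between 29.8% and 38.7%.

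Among the oxygen sensors, Hif1a, the alpha subunit that drives the acute hypoxic response, was 53.9, 43.8 and 46.1 TPM in WT contralateral, 89.0, 58.9 and 71.5 in peri-infarct and 96.6, 94.8 and 168 in core libraries. In KO, Hif1a was 41.2, 45.6 and 45.4 in contralateral, 62.4, 57.2 and 64.3 in peri-infarct and 101, 118 and 103 in core libraries. The 3 regions are ordered without overlap in both genotypes. Hif1a rose in the core of WT (1.84 ± 0.32, adjusted p = 0.00070) and KO (1.41 ± 0.32, adjusted p = 0.0055), and without WT core replicate 3 the sizes were 1.13 ± 0.14 and 1.40 ± 0.13. Peri-infarct differences of 0.70 ± 0.32 (adjusted p = 0.36) in WT and 0.50 ± 0.31 (adjusted p = 0.55) in KO passed only without that library (0.67 ± 0.13, adjusted p = 0.0015 and 0.43 ± 0.13, adjusted p = 0.024). Epas1, the HIF alpha of endothelium and astrocytes, in WT was 64.4, 65.0 and 61.1 in contralateral, 54.4, 62.6 and 66.5 in peri-infarct and 57.6, 49.2 and 22.1 in core libraries. In KO, Epas1 was 72.2, 55.9 and 57.7 in contralateral, 75.8, 62.7 and 60.6 in peri-infarct and 48.2, 45.7 and 48.4 in core libraries. All KO core values are below the other KO values, while WT core and peri-infarct values overlap. It did not pass against contralateral tissue in either genotype. The share of Hif1a in the TPM of both was 45.6%, 40.2% and 43.0% in WT contralateral, 62.1%, 48.4% and 51.8% in peri-infarct and 62.7%, 65.8% and 88.4% in core libraries. In KO, Hif1a made up 36.4%, 45% and 44.0% in contralateral, 45.2%, 47.7% and 51.5% in peri-infarct and 67.7%, 72.2% and 68.0% in core libraries.

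Egln3 encodes PHD3, a prolyl hydroxylase that HIF itself induces. Its levels were 8.43, 8.78 and 9.54 TPM in WT contralateral, 16.3, 10.9 and 11 in peri-infarct and 16.9, 20.1 and 50.7 in core libraries. In KO they were 6.71, 6.47 and 5.83 in contralateral, 5.60, 6.91 and 7.81 in peri-infarct and 9.60, 12.2 and 12.1 in core libraries. In each region all 3 KO libraries are below all 3 WT libraries, and the KO core overlaps the WT peri-infarct tissue. Egln3 rose in the WT core (2.33 ± 0.46, adjusted p = 0.0015, 1.21 ± 0.18, adjusted p = 7.3e-05 without WT core replicate 3), and its KO core difference of 0.96 ± 0.45 (adjusted p = 0.14) passed without that library (0.95 ± 0.17, adjusted p = 0.00020). In peri-infarct tissue the differences were 0.61 ± 0.45 (adjusted p = 0.74) in WT and 0.12 ± 0.45 (adjusted p = 0.98) in KO. Only the WT one passed without WT core replicate 3 (0.58 ± 0.16, adjusted p = 0.022, beside 0.05 ± 0.17 in KO), and the difference between the responses was -0.52 ± 0.24 there, which did not pass. Egln1, which encodes the main oxygen sensor PHD2, in WT was 64.8, 69.6 and 74.7 in contralateral, 66.6, 68.4 and 72.9 in peri-infarct and 60.9, 63.0 and 44.9 in core libraries. In KO, Egln1 was 62.7, 66.6 and 67.0 in contralateral, 61.6, 65.7 and 65.5 in peri-infarct and 54.3, 49.1 and 54.2 in core libraries. It was not called in any region comparison with all libraries, and in the KO core it fell without WT core replicate 3 (-0.19 ± 0.07, adjusted p = 0.034). The share of Egln3 in the TPM of both hydroxylases was 11.5%, 11.2% and 11.3% in WT contralateral and 21.7%, 24.2% and 53.0% in WT core tissue. In KO, Egln3 made up 9.66%, 8.85% and 8.01% in contralateral and 15%, 19.9% and 18.2% in core tissue.

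Of the 7 hypoxia-induced genes, Adm, the vasodilator peptide adrenomedullin, was 3.26, 4.69 and 4.79 TPM in WT contralateral, 5.98, 4.65 and 4.46 in peri-infarct and 6.16, 5.46 and 14.1 in core tissue. In KO, Adm was 2.41, 2.91 and 3.05 in contralateral, 2.27, 3.92 and 4.42 in peri-infarct and 7.29, 7.99 and 9.85 in core libraries. All core libraries lie above the contralateral libraries of their genotype. Adm rose in both cores (1.61 ± 0.46, adjusted p = 0.014 in WT and 1.71 ± 0.47, adjusted p = 0.017 in KO), and the WT call was lost without WT core replicate 3 (0.61 ± 0.27, adjusted p = 0.089). It had 20 to 203 counts per library, and 20 is the lowest count of any member in any library. P4ha1 and P4ha2 encode the alpha subunits of collagen prolyl 4-hydroxylase, an enzyme of collagen synthesis. P4ha1 in WT was 35.6, 57.7 and 49.9 in contralateral, 55.6, 61.0 and 52.6 in peri-infarct and 53.4, 77.4 and 108 in core libraries. In KO, P4ha1 was 33.3, 39.9 and 36.1 in contralateral, 41.4, 38.3 and 42.2 in peri-infarct and 56.2, 57.3 and 59.6 in core libraries, and in TPM the KO core lies above the other KO regions, which overlap, while all 3 WT regions overlap. P4ha2 in WT was 9.02, 9.94 and 8.99 in contralateral, 9.89, 8.71 and 6.49 in peri-infarct and 11.4, 14.6 and 35.6 in core libraries. In KO, P4ha2 was 11.2, 7.37 and 7.90 in contralateral, 10.2, 9.23 and 11.9 in peri-infarct and 9.80, 12.4 and 13.2 in core libraries, with the WT core above the rest of WT. Both rose in the WT core (1.26 ± 0.31, adjusted p = 0.0065 and 1.75 ± 0.46, adjusted p = 0.0091; without WT core replicate 3 0.61 ± 0.16, adjusted p = 0.0083 and 0.63 ± 0.20, adjusted p = 0.021). In the KO core they passed only without that library (0.78 ± 0.15, adjusted p = 0.00040 and 0.54 ± 0.18, adjusted p = 0.021). Markers of fibroblasts, which make collagen, summed to 56.5 to 105 TPM in contralateral and 851 to 1847 in core libraries, and their part was not tested.

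The other 4 hypoxia-induced genes were not called higher in a core. Ndrg1, a stress gene abundant in oligodendrocytes, was 137, 136 and 128 TPM in WT contralateral, 87.6, 132 and 95.9 in peri-infarct and 71.8, 87.9 and 29.1 in core tissue. In KO, Ndrg1 was 96.1, 129 and 121 in contralateral, 167, 123 and 139.8 in peri-infarct and 72.9, 72.0 and 89.9 in core libraries. Each core library is below the contralateral ones of its genotype, and Ndrg1 fell in the WT core (-0.79 ± 0.20, adjusted p = 0.0075). Myelin gene markers of oligodendrocytes summed to 7128 to 7708 TPM in WT contralateral and 545 to 6266 in WT core libraries, and their part was not tested. Bnip3, a mitophagy receptor, ranged from 173 to 213 TPM in contralateral and from 126 to 152 in core libraries of both genotypes, without overlap. With all libraries it did not pass, and without WT core replicate 3 it fell in WT (-0.32 ± 0.10, adjusted p = 0.017) and KO (-0.33 ± 0.09, adjusted p = 0.0044). Ddit4, an inhibitor of mTORC1 signalling, ranged from 22.3 to 91.1 TPM and Ankrd37, a small HIF target, from 4.56 to 12.8 TPM over all libraries, and neither passed in any comparison.

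**Figure D3:**
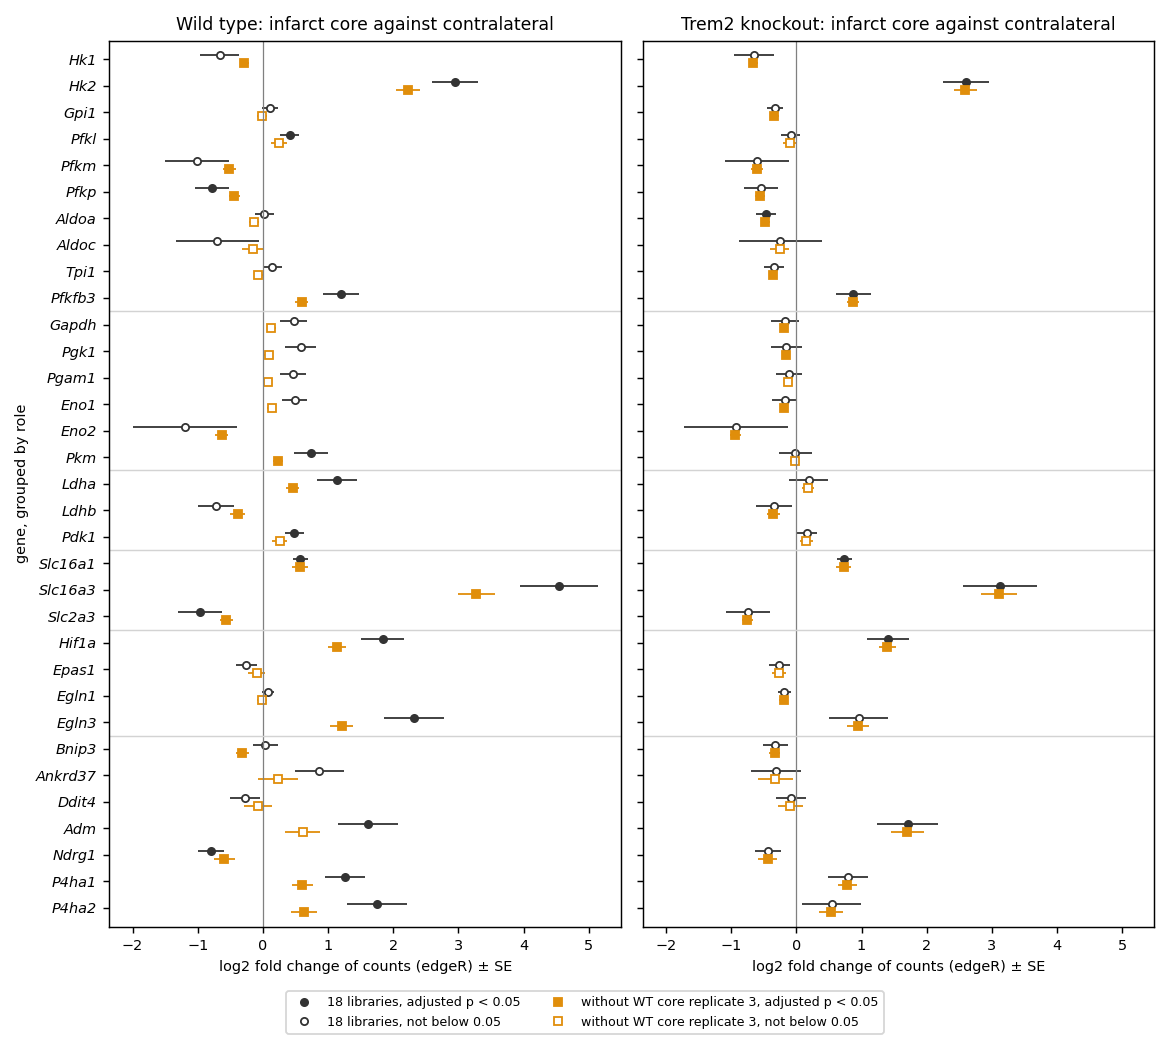
Log2 fold changes (edgeR, with 1 SE) of the 33 genes in the infarct core against contralateral tissue, WT on the left and KO on the right, in order of role. Black circles are from all 18 libraries and orange squares from the fit without WT core replicate 3; filled symbols have an adjusted p under 0.05. Slc16a3 and Hk2 lie farthest to the right in both panels, and the orange bars are shorter than the black ones.

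Counted over the 33 members at an adjusted p under 0.05, 3 rose in WT peri-infarct tissue (Hk2, Slc16a1, Slc16a3) and none fell, while 3.27% of all tested genes rose and 0.00652% fell. Leaving out any 1 WT contralateral library, or WT peri-infarct replicate 1 or 3, brought the 3 calls to 0, and the replicate block left 2 (Hk2 and Slc16a3). In KO peri-infarct tissue 2 rose (Hk2, Slc16a1), where 4.42% of all genes rose, and none fell, where 0.0522% of all did. Without any 1 KO contralateral or peri-infarct library 1 of the 2 calls was left. The WT core against contralateral tissue had 13 members higher and 3 lower (Pfkp, Slc2a3, Ndrg1), beside 29.1% and 11.5% of all genes. Leaving out WT contralateral replicate 1 gave 10 calls, and leaving out WT core replicate 1 gave 25. In the KO core 6 were higher (Hk2, Pfkfb3, Slc16a1, Slc16a3, Hif1a, Adm) and 1 lower, beside 19.7% and 3.31%, and 4 were called without KO contralateral replicate 1 or 2. With log2(TPM + 1) in limma-trend the split was 9 higher and 13 lower in WT core, beside 20.3% and 40.6% of all genes, and 7 and 7 in KO core, beside 20.5% and 2.43%. Gpi1, Pfkl, Aldoa, Tpi1, Pgam1, Egln1 and Bnip3 in WT core and Pkm in KO core had signs that differed between scalings. With only the 6 libraries compared, 0 members were called in the WT core by edgeR's quasi-likelihood test and 21 in the KO core. For fits of fewer libraries, here and below, the share of all genes is given only without WT core replicate 3. The other counts show how the calls moved and do not set the members apart from other genes. The median log2 fold change of the members was 0.46 in WT core and -0.17 in KO core, beside -0.03 and -0.01 over all genes. Without WT core replicate 3 the members' medians were 0.09 and -0.18, and on log2(TPM + 1) with all libraries they were -0.0018 and -0.31, beside -0.34 and -0.12 over all genes. With WT core replicate 3 left out the counts changed most for falling genes: in WT core 10 rose and 8 fell (23.6% and 16.6% of all genes), and in KO core 9 rose and 15 fell (29.6% and 27.8%). The 15 are Hk1, Gpi1, Pfkm, Pfkp, Aldoa, Tpi1, Gapdh, Pgk1, Eno1, Eno2, Ldhb, Slc2a3, Egln1, Bnip3 and Ndrg1. In peri-infarct tissue the counts were then 6 higher and 5 lower in WT (14.2% and 5.34% of all genes) and 5 higher and 7 lower in KO (13.7% and 7.61%). The 2 genotypes' comparisons use separate control libraries, and all libraries were fitted in 1 model. In that model all groups share 1 estimate of the spread between libraries for each gene. Leaving out 1 WT library also moved the KO calls. The members' median in the KO core was -0.17 with that library and -0.18 without it. The SEs printed above for KO core members in both fits were smaller without it, and the cause was not tested.

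Between core and peri-infarct tissue, 6 members rose in WT (Hk2, Ldha, Slc16a3, Hif1a, Egln3, P4ha2) and none fell, beside 12.3% and 0.678% of all genes. Of these, 2 passed without WT core replicate 3 (Egln3 and P4ha2, beside 4.88% of all genes). Leaving out any 1 WT peri-infarct library left 0 members called, and leaving out WT core replicate 1 or 2 gave 20 and 17. With the replicate number as a block 0 of the 6 calls were left. In KO edgeR called 0 members and 0% of all genes with all libraries. There 6 members had an unadjusted p under 0.05, beside 2857 of 15329 genes. DESeq2 called 1 member higher and 1 lower, beside 675 and 220 of 15329 genes, and limma-voom called 0 members. When WT core replicate 3 was left out, 8 members rose in KO (Hk2, Pfkfb3, Ldha, Slc16a3, Hif1a, Egln3, Adm, P4ha1) and 8 fell (Hk1, Pfkm, Pfkp, Aldoa, Eno2, Slc2a3, Epas1, Ndrg1), beside 24.3% and 15.8% of all genes. In counts scaled by library (CPM, with TMM factors) the order contralateral, peri-infarct, core held without overlap for 5 rising members in WT (Hk2, Ldha, Slc16a3, Hif1a, Egln3; 13.4% of all genes did) and for 5 in KO (Hk2, Pfkfb3, Slc16a3, Hif1a, P4ha1; 16.3%). The falling order held for 1 member in WT (Eno2; 4.94%) and for 5 in KO (Pfkm, Pfkp, Aldoa, Eno2, Slc2a3; 6.73%). In TPM the rising order held for 4 members in each genotype (9.67% of all genes in WT and 13.8% in KO), without Ldha in WT and P4ha1 in KO. The falling order in TPM held for 6 members in WT (Hk1, Pfkm, Pfkp, Tpi1, Eno2, Slc2a3; 11% of all genes) and for 10 in KO (9.23%).

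The comparison of genotypes asks whether loss of Trem2 changes these genes. In the fit of all 18 libraries edgeR called 0 members in contralateral tissue, 0 in peri-infarct tissue, 0 in the core and 0 for the mean over regions, where 0.00652%, 0.00652%, 0.013% and 0.228% of all genes were called in either direction. Unadjusted p values under 0.05 were found for 0, 1, 19 and 9 members, beside 2.96%, 3.23%, 11.9% and 13% of all genes. The last 2 counts were 12 and 13 without WT core replicate 3, beside 19.7% and 26%. DESeq2 called 0, 0, 1 (Egln3) and 2 members (Egln3 and Slc16a3), all lower in KO, where it called 11, 8, 51 and 255 of 15329 genes lower. Limma-voom called 0 members in each. For the 2 differences between responses, peri-infarct and core against contralateral tissue, edgeR, DESeq2 and limma-voom called 0 members, 0% of all genes were called by edgeR, and 0 and 10 members had an unadjusted p under 0.05, as did 0.731% and 2.39% of all genes. The medians of the members were -0.02, -0.09 and -0.41 in the 3 regions, beside -0.02, -0.00 and -0.01 over all genes. In the core the members' median was -0.16 without WT core replicate 3, beside 0.02 over all genes, and -0.11 on log2(TPM + 1), beside 0.22. In CPM, 6 members were lower in KO without overlap in contralateral tissue, 9 in peri-infarct tissue and 13 in the core, beside 10.5%, 9.27% and 5.09% of all genes, and 2, 1 and 0 were higher, beside 6.43%, 8.02% and 5.16%. The 13 were Gpi1, Pfkl, Aldoa, Tpi1, Gapdh, Pgk1, Pgam1, Eno1, Pkm, Ldha, Egln1, Egln3 and Bnip3. None of the 13 turned its sign in the core under the other scalings, where Hk1, Slc16a1, Epas1 and Adm did. In TPM 5 members were lower in KO without overlap in contralateral tissue, 7 in peri-infarct tissue and 8 in the core, beside 12.9%, 5.53% and 2.07% of all genes. Higher were 1, 1 and 0, beside 5%, 11.1% and 10.7%. Gpi1, Pfkl, Aldoa, Tpi1 and Egln1 overlapped in the core on this scale.

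When WT core replicate 3 was left out, edgeR called 6 members lower in KO for the mean over the regions and none higher, beside 5.2% and 2.26% of all genes. They were Egln3 (-0.70 ± 0.10, adjusted p = 0.0023), Slc16a3 (-0.76 ± 0.15, adjusted p = 0.013), P4ha1 (-0.34 ± 0.09, adjusted p = 0.031), Pfkfb3 (-0.24 ± 0.05, adjusted p = 0.017), Ldha (-0.21 ± 0.06, adjusted p = 0.036) and Pfkp (-0.16 ± 0.04, adjusted p = 0.044). With all libraries the same differences were -1.08 ± 0.26 (adjusted p = 0.14), -1.19 ± 0.31 (adjusted p = 0.17), -0.57 ± 0.18 (adjusted p = 0.22), -0.45 ± 0.16 (adjusted p = 0.26), -0.45 ± 0.18 (adjusted p = 0.29) and -0.05 ± 0.15 (adjusted p = 0.94). By region and without that library, core differences passed for Egln3 (-0.70 ± 0.18, adjusted p = 0.047), Hk1 (-0.37 ± 0.07, adjusted p = 0.021) and Eno1 (-0.28 ± 0.07, adjusted p = 0.037). Egln3 also passed in peri-infarct tissue (-0.96 ± 0.17, adjusted p = 0.038). With all libraries none of these was called. The core differences were then -1.83 for Egln3, -0.0037 for Hk1 and -0.65 for Eno1, and Egln3 gave -0.95 in peri-infarct tissue. On log2(TPM + 1) with all libraries the core value of Hk1 turned to 0.43, while Eno1 gave -0.35. The lower level of Hk1 in the KO core thus appeared only without WT core replicate 3. The regional calls without that library stand beside 0.0778% of all genes lower in peri-infarct tissue and 2.06% in the core, and no member was higher, beside 0.0389% and 0.998%. Slc16a3 in peri-infarct tissue, with 5.29, 5.67 and 8.84 TPM in KO against 22.9, 12.8 and 13.8 in WT, missed the threshold narrowly (-1.37 ± 0.25, adjusted p = 0.054). In the core Slc16a3 differed by -1.82 ± 0.52 (adjusted p = 0.40) with all libraries and by -0.53 ± 0.25 (adjusted p = 0.26) without WT core replicate 3.

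An exact permutation test of each gene, which exchanges genotype labels within regions (8000 arrangements, 2-sided, log2 CPM), was adjusted over all 15329 genes. Lower in KO were 1.17% of all genes and 2 members. By this exact permutation test Egln3 was lower by a mean log2 difference of -0.94 (p = 0.00025, the smallest the arrangements can give, adjusted p = 0.036), with all 9 KO libraries below all WT libraries of their region. Slc16a3 was lower by -1.02 (permutation p = 0.0005, adjusted p = 0.040), with 8 of 9 KO libraries below all WT libraries of their region. Pfkfb3 (-0.40, adjusted p = 0.051), Ldha (-0.39, 0.079), Egln1 (-0.18, 0.080) and P4ha1 (-0.50, 0.086) did not pass this permutation test, and no member was called higher in KO, where 0.45% of all genes were. With WT core replicate 3 left out (4000 arrangements) the differences were -0.69 for Egln3 (adjusted p = 0.025) and -0.74 for Slc16a3 (adjusted p = 0.035), and no other member passed, beside 2.95% of all genes lower and 1.18% higher. The test treats libraries of different regions as separate samples. If a replicate number stood for 1 animal, 20 arrangements would remain and no p could go below 0.1. The labels do not settle this. Deviations from group means of same-numbered contralateral and peri-infarct libraries correlated in WT (r of 0.40, 0.44 and 0.39) and not in KO (0.03, 0.04 and -0.08). Egln3 was the 1 member lower in KO without overlap in all 3 regions, in CPM, as were 0.522% of all genes.

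**Figure D4:**
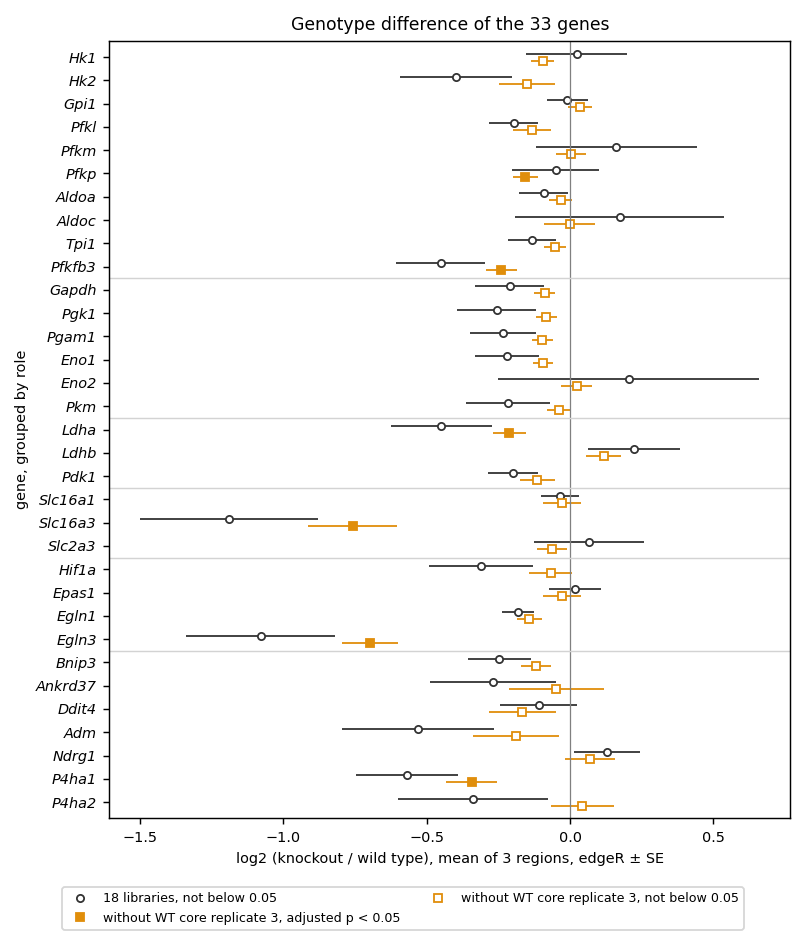
Log2 differences between KO and WT averaged over the 3 regions (edgeR, with 1 SE) for the 33 genes in order of role. Black circles are from all 18 libraries, none of which passed, and orange squares from the fit without WT core replicate 3, where Egln3, Slc16a3, P4ha1, Pfkfb3, Ldha and Pfkp are filled.

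Markers of macrophages differed between the genotypes in the same libraries. The 10 microglia and macrophage markers summed to 555 to 712 TPM in KO and 772 to 1013 in WT contralateral tissue, and to 2398 to 2635 and 3047 to 4215 in peri-infarct tissue, without overlap. In the core the ranges of 4591 to 6193 in KO and 5425 to 13709 in WT overlap. The 7 markers of border and blood macrophages summed to 71.6 to 154 in KO and 209.8 to 560.3 in WT contralateral tissue, and to 838 to 1331 and 1281 to 2748 in peri-infarct tissue, where the ranges overlap. Their core ranges of 3777 to 6089 in KO and 3921 to 13858 in WT overlap as well. No marker of either list was at 0 in all libraries of a group. Markers of other tissue differed too. The 6 markers of striatal neurons summed to 397 to 738 TPM in KO and 155 to 377 in WT contralateral tissue, without overlap. In peri-infarct tissue their ranges of 490 to 569 in KO and 123 to 612 in WT overlap. The part of macrophages or of striatal tissue in the levels of Egln3, Slc16a3, Pfkfb3, Ldha and P4ha1 was not tested.

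Other genes of the same pathways were taken from lists of known function, chosen with earlier results of these data known. Their counts are therefore a description of the lists. Of 23 further glycolysis and glycogen genes, 7 rose and 2 fell in the WT core (29.1% and 11.5% of all genes did) and 5 rose and 1 fell in the KO core (19.7% and 3.31%). Without WT core replicate 3 the counts were 6 and 1 in WT (23.6% and 16.6% of all genes) and 6 and 6 in KO (29.6% and 27.8%). Hk3, a hexokinase of myeloid cells, rose most (5.33 ± 0.66, adjusted p = 0.00011 in WT and 3.76 ± 0.63, adjusted p = 0.00067 in KO), with the glycogen phosphorylase Pygl (2.66 ± 0.39, adjusted p = 0.00021 and 1.75 ± 0.38, adjusted p = 0.0039) and the phosphoglucomutase Pgm2 (1.70 ± 0.30, adjusted p = 0.00069 and 1.28 ± 0.30, adjusted p = 0.0060). The WT values of Hk3, Pygl and Pgm2 were 3.85 ± 0.27, 1.87 ± 0.20 and 1.06 ± 0.13 without WT core replicate 3, and all 3 passed. Tigar, a fructose bisphosphatase that slows glycolysis, fell in both (-0.28 ± 0.11, adjusted p = 0.0499 and -0.45 ± 0.11, adjusted p = 0.0077), and the WT call was lost without WT core replicate 3 (-0.20 ± 0.10, adjusted p = 0.11). The glucose transporter Slc2a1 of the blood-brain barrier and glia, named for its role and not by its p, gave 0.42 ± 0.22 (adjusted p = 0.14) in WT and 0.02 ± 0.22 (adjusted p = 0.96) in KO and did not pass, nor without WT core replicate 3 (0.17 ± 0.21 and 0.01 ± 0.19). A list of 12 genes covers the mitochondrial pyruvate carrier and pyruvate dehydrogenase with its kinases and phosphatases. Of these, 7 fell in the WT core (Dlat, Dld, Mpc2, Pdha1, Pdhb, Pdhx, Pdk3), beside 11.5% of all genes, and 0 rose, beside 29.1%. In WT 8 fell without WT core replicate 3, beside 16.6% of all genes. In the KO core 0 of the 12 were called with all libraries, where 5 had an unadjusted p under 0.05, as did 5506 of 15329 genes. Without WT core replicate 3, 9 of the 12 fell in the KO core, beside 27.8% of all genes.

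Of 29 further HIF targets, 13 rose and 5 fell in the WT core and 9 rose and 4 fell in the KO core, beside 29.1%, 11.5%, 19.7% and 3.31% of all genes. Without WT core replicate 3 the counts were 10 and 4 in WT and 12 and 7 in KO, beside 23.6%, 16.6%, 29.6% and 27.8%. Plod1, a collagen lysyl hydroxylase, rose by 3.09 ± 0.41 (adjusted p = 0.00013) in WT and 2.27 ± 0.40 (adjusted p = 0.00094) in KO. Plod2, another lysyl hydroxylase, rose by 2.46 ± 0.37 (adjusted p = 0.00024) and 2.29 ± 0.36 (adjusted p = 0.00051). Both rose in WT without WT core replicate 3, by 2.13 ± 0.11 and 1.90 ± 0.28. Higd1a, a mitochondrial protein, fell in both (-0.46 ± 0.11, adjusted p = 0.0040 and -0.39 ± 0.11, adjusted p = 0.016). In the KO core the angiogenic growth factor Vegfa fell (-0.59 ± 0.11, adjusted p = 0.0012), which gave -0.15 ± 0.11 (adjusted p = 0.24) in the WT core. Vegfa was also the 1 gene of this list lower in KO over the regions with all libraries (-0.48 ± 0.06, adjusted p = 0.0032). Whether the place of Vegfa on its chromosome relative to Trem2 plays a part was not tested. Of 12 genes of the HIF machinery, 1 rose and 2 fell in the WT core and 1 rose in the KO core, and without WT core replicate 3, 2 fell in WT and 1 rose and 5 fell in KO. Of all genes, 29.1% rose and 11.5% fell in the WT core and 19.7% rose in the KO core, and without that library 16.6% fell in WT and 29.6% rose and 27.8% fell in KO. Arnt, the constitutive partner of HIF alpha, rose in WT (0.43 ± 0.15, adjusted p = 0.030) and KO core (0.53 ± 0.15, adjusted p = 0.017). The WT call was lost without WT core replicate 3 (0.17 ± 0.08, adjusted p = 0.11). Cul2 and Eloc, parts of the ligase that degrades HIF alpha, fell in the WT core (log2 fold changes of -0.22 ± 0.08, adjusted p = 0.049 and -0.25 ± 0.09, adjusted p = 0.042), and the call of Cul2 was lost without that library (-0.17 ± 0.08, adjusted p = 0.086).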

How the data were processed

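RNA was measured in 18 libraries (2 genotypes, 3 regions, 3 libraries per group) prepared with Trizol-type extraction, polyA selection and the MGIEasy stLFR kit, per the labels' protocols. Expected counts and TPM values per gene were deposited by the authors; TPM divides by transcript length and by the library's sum. HISAT2 2.0.4, Bowtie2, Subread and the mouse build GRCm39 are named without their roles, per the submitters' processing notes, and the counting tool, its use of strand and its treatment of gene copies are not given in the sources used here. Counts were estimates (not whole in some library for 3678 of 18922 genes, 19.4%) and were rounded, whereas the planned test had assumed whole counts.

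Totals were 16993978 to 17691801 in 17 libraries and 18713770 in WT core replicate 3. The lowest count of a member in a library was 20 (Adm).

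All 18 libraries were fitted together in edgeR 4.0.16 (R 4.3.3) with TMM scaling, filterByExpr and the robust quasi-likelihood test (12 residual degrees of freedom), and p-values were adjusted by Benjamini and Hochberg over 15329 genes. A gene was called at an adjusted p under 0.05. Contrasts compared regions within genotype, genotypes within region, their mean and the differences between responses. For single genes, an exact permutation test exchanged genotype labels within regions. The edgeR step was tested on simulated counts for the contrast of WT core and contralateral tissue only, with no outlying library. The other tests were not tried on simulated data. Alternatives were other scalings, DESeq2 1.42.0, limma 3.58.1 (voom, and limma-trend on log2(TPM + 1) or log2(TPM + 0.1)), no low-count filter, fewer libraries, a replicate block and leaving out replicates. DESeq2, limma-voom, library size scaling and the permutation test without WT core replicate 3 were added after seeing the data. Tables and figures were made with Python 3.11.15 and pandas 2.3.3.

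The members and all lists were chosen with earlier results of these data known. Members shown in full are the isozyme pairs, those with the smallest p per role in a core comparison and any called between genotypes, and of other lists at most 3 genes per direction with the smallest p are named. Replicate numbers were checked for pairing by correlating deviations from group means: same-numbered WT contralateral and peri-infarct libraries gave r of 0.40, 0.44 and 0.39, and in the other pairs of groups not all values were above 0.1. Differently numbered WT contralateral and peri-infarct libraries gave r of -0.34 to -0.05. The labels do not say whether a shared number is a shared animal. The block changed the WT peri-infarct count from 3 to 2 and that of the WT core against peri-infarct tissue from 6 to 0.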

Additional observations from a re-analysis of the deposited data

How the results depend on the processing

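Counts of members called at an adjusted p under 0.05 moved with WT core replicate 3, with other single libraries and with the libraries fitted, and the cause was not tested. These counts are given here without the share of all genes called in the same fit. They therefore describe how the calls moved, not how the members differ from other genes. For WT peri-infarct against contralateral tissue (3 calls), RLE size factors gave 1, limma-voom 0 and a fit of only the libraries compared 5. Leaving out 1 replicate gave 0 to 11. Without WT core replicate 3, DESeq2 gave 12, limma-voom 11 and library size scaling 10. For WT core against contralateral tissue (16 calls), only the libraries compared gave 0 and leaving out 1 replicate gave 10 to 25. For WT core against peri-infarct tissue (6 calls), DESeq2 gave 12, limma-voom 0, log2(TPM + 1) 2, log2(TPM + 0.1) 0 and only the libraries compared 0. Leaving out 1 replicate gave 0 to 20, and library size scaling without WT core replicate 3 gave 0. For KO peri-infarct against contralateral tissue (2 calls), limma-voom gave 1, log2(TPM + 0.1) 4 and only the libraries compared 9. Leaving out 1 replicate gave 1 to 12, and without WT core replicate 3 DESeq2 gave 13, limma-voom 12 and library size scaling 10. For KO core against contralateral tissue (7 calls), log2(TPM + 1) and log2(TPM + 0.1) gave 14 and only the libraries compared 21. Leaving out 1 replicate gave 4 to 24, and without WT core replicate 3 DESeq2 gave 26, limma-voom 24 and library size scaling 20. For KO core against peri-infarct tissue (0 calls), DESeq2 gave 2, log2(TPM + 1) 6, log2(TPM + 0.1) 5 and only the libraries compared 17. Leaving out 1 replicate gave 0 to 16, and without WT core replicate 3 DESeq2 gave 18, limma-voom 16 and library size scaling 16.

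Between genotypes (0 calls in each comparison), DESeq2 gave 1 in the core and 2 for the mean over regions. Leaving out 1 replicate gave 0 to 1 in peri-infarct tissue, 0 to 3 in the core and 0 to 6 for the mean, where leaving out WT core replicate 1 gave 2. Without WT core replicate 3, DESeq2 gave 1 in contralateral tissue, 3 in peri-infarct tissue, 9 in the core, 12 for the mean and 5 for the difference between core responses. Limma-voom then gave 3 in the core and 6 for the mean, and library size scaling 1 and 4. The mean over regions uses all groups, so a fit of only the libraries compared was not run for it.

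With the replicate block, 2 members were called in WT peri-infarct tissue, 14 in the WT core against contralateral tissue, 0 in the WT core against peri-infarct tissue, 2 in KO peri-infarct tissue and 6 in the KO core, and 0 in the other comparisons. Signs that turned were those of Pfkl in WT core against contralateral tissue (-0.0018 with log2(TPM + 1) and -0.0019 with log2(TPM + 0.1)) and Slc16a1 in core against peri-infarct tissue (WT -0.18 and -0.18, KO -0.058 and -0.060 on the same scales, and in KO -0.021 to 0.10 with single replicates left out, the lowest without KO peri-infarct replicate 2). The Egln3 difference in KO peri-infarct tissue was -0.012 without its replicate 3 and between that and 0.26 with other single replicates left out, and that of Pfkfb3 between genotypes in the core was 0.00070 with library size scaling without WT core replicate 3. Isozyme shares depend on the unit. In WT contralateral tissue the mean share of Eno2 was 40.6% of summed TPM and 53.4% of summed CPM, which is not per length and turns the order of the enolases. There Aldoc went from 32.2% to 48.4% and Slc16a3 from 11.5% to 6.41%. The share of Slc16a3 in WT core went from 57.5% to 43.8% and in KO peri-infarct tissue from 15.4% to 8.79%.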
